A study of Mus musculus with 19 samples.

Results

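The genes described here are the 10 that carry most of de novo lipogenesis, the making of fatty acids from sugar carbon: Fasn, Acaca, Acly, Scd1, Elovl6, Srebf1, Me1, Pklr, Mlxipl and Thrsp. They were chosen by name, with earlier results of these data known. All 10 have a row among the 13549 genes of the embryo table and an identifier among the 17606 of the tumour files. RNA sequencing was used in an embryo model and a tumour model of fibrolamellar carcinoma. This liver cancer carries a gene fusion that joins DNAJB1, a chaperone, to PRKACA, a catalytic subunit of protein kinase A (PKA). Livers came from embryos of day 18.5, 5 labelled as controls and 4 with the genotype written as DNAJ1B-PKA_Overexpression. In these 4, a DNAJB1-PKA-GFP cDNA in the Rosa26 locus was switched on by Cre recombinase under the albumin promoter (Alb-Cre), which acts in the liver from mid-gestation. The labels do not say which of these alleles the control embryos carried. Tumours grew from FL8, a single mouse cell line, placed within gelatin capsules beneath the flank skin of NSG mice, an immunodeficient strain. Of the 10 tumours, 5 came from mice given the carrier alone (methocel, called vehicle here) and 5 from mice given palbociclib, which blocks the cell cycle kinases CDK4 and CDK6. Palbociclib was dosed orally at 75 mg/kg on 3 days with 4 days off, starting when tumours averaged 75 mm3. No label says whether embryos shared a litter, and all tumours grew from a single cell line. The p-values therefore weigh each group difference against the spread among these samples only.

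In lipogenesis, glucose is broken down to pyruvate, carried into mitochondria and exported as citrate, from which the cell rebuilds acetyl-CoA in the cytosol. Acetyl-CoA is carboxylated to malonyl-CoA, and fatty acid synthase joins these units into palmitate with reducing power from NADPH. In liver the genes are switched on after a carbohydrate meal by the transcription factors SREBP-1c, which answers to insulin, and ChREBP, which answers to glucose metabolites. Glucagon, acting through cyclic AMP and PKA, is known to lower the same programme. Before birth the liver is supplied mainly with glucose by the placenta, and it makes blood cells as well as hepatocytes.

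The members fall into 4 roles, with gene spans given in mm10 (GRCm38) from GENCODE release M21. Pyruvate kinase of liver and red cells, which makes pyruvate, is encoded by Pklr (chr3:89136142-89146784, plus strand). ATP-citrate lyase, which splits exported citrate to acetyl-CoA, is encoded by Acly (chr11:100476353-100528000, minus strand), and malic enzyme, a source of NADPH, by Me1 (chr9:86581371-86695953, minus strand). The synthetic core is acetyl-CoA carboxylase 1, from Acaca (chr11:84129672-84401651, plus strand), and fatty acid synthase, from Fasn (chr11:120805846-120824547, minus strand). Palmitate is lengthened by the elongase of Elovl6 (chr3:129532355-129638495, plus strand) and given its first double bond by the desaturase of Scd1 (chr19:44394455-44407879, minus strand). The regulators are Srebf1 (chr11:60199089-60222581, minus strand), which encodes SREBP-1, and Mlxipl (chr5:135089890-135138382, plus strand), which encodes ChREBP. Thrsp (chr7:97412938-97417730, minus strand) encodes Spot 14, a small protein that promotes lipogenesis.

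The stretches of 250 bases upstream of the Fasn and Mlxipl start sites are shown first, since these were the members that fell in fusion embryos. RefSeq start sites on build GRCm38.p6 were found for 9 of the 10 members, 14 sites in all, and Mlxipl had a pair of them. The first sequence lies at chr11:120824548-120824797 on the minus strand, the others at chr5:135089640-135089889 and chr5:135106641-135106890 on the plus strand. All are written 5′ to 3′ and end at the base before the start, and capitals mark the motif matches listed after them.
Fasn: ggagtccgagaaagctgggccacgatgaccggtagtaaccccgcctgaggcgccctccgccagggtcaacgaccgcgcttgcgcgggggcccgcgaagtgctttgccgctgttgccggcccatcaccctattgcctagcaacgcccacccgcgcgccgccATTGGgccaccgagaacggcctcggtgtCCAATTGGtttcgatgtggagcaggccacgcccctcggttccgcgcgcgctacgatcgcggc
Mlxipl, upstream start: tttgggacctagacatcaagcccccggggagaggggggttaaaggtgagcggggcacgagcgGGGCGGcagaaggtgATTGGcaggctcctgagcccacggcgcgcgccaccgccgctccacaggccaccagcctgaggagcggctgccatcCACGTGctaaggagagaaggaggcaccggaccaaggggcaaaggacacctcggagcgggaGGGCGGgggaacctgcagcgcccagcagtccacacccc
Mlxipl, downstream start: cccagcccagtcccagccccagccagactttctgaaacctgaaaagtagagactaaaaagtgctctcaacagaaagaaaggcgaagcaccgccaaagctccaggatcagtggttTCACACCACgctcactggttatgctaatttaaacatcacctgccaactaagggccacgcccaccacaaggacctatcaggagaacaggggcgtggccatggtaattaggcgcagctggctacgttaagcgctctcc
Motifs were searched on both strands in these windows. They were a core of the sterol response element bound by SREBP proteins (TCACNCCAC, in 1.05% of all 32851 promoters), the E-box (CACGTG, 6.02%) and the cyclic AMP response element (TGACGTCA, 1.55%). The shorter motif TGACG, which the full cyclic AMP element contains, was in 17.8%, the NF-Y box CCAAT in 33.8% and the Sp1 box GGGCGG in 32.7%. The Fasn window held 3 NF-Y boxes, beginning 90, 62 and 59 bases before the start, of which the last 2 overlap on opposite strands. The upstream Mlxipl window held an E-box 98 bases before the start, an NF-Y box at 173 bases and Sp1 boxes at 188 and 38 bases. The downstream Mlxipl window held the sterol core 136 bases before the start. Among the 14 sites of the members, the sterol core and the E-box each occurred in 1, both at Mlxipl, NF-Y boxes in 7 and Sp1 boxes in 5. Neither the full cyclic AMP element nor the shorter motif occurred in any of the 14. No start site was found for Scd1. The only Acaca window, chr11:84195188-84195437, lay inside the gene span, so the stretch before the annotated start of Acaca was not searched. Gene counts do not tell the start sites of a gene apart, and a match of letters is not a measured binding site.

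Library totals (M stands for 1000000) were 7.66 to 23.1 M counts in control embryos, 13.5 to 45.6 M in fusion embryos, 2.96 to 33.9 M in vehicle tumours and 24.9 to 43.1 M in palbociclib tumours. Levels are in CPM, counts scaled to a library total of 1000000. Mouse Prkaca was at 36.3 to 50.5 CPM in controls and 52.0 to 114 CPM in fusion embryos, without overlap, although control 2 (50.5) and fusion 9 (52.0) were close. Mouse Dnajb1 was at 41.7 to 52.9 CPM in controls and 51.7 to 74.3 CPM in fusion embryos, where fusion 9 lay below control 5. The table does not separate the fusion transcript from the mouse genes. The embryo libraries split into 2 sets, one with 9.72 to 10.1% of counts on 82 ribosomal protein genes (control 1 and 2, fusion 8 and 9) and one with 6.18 to 7.87% (control 3, 4 and 5, fusion 6 and 7), which no label explains. By Xist, the 3 controls of the lower-share set were male and its 2 fusion embryos female, so genotype and sex cannot be told apart within that set. In the higher-share set control 1, control 2 and fusion 8 were female and fusion 9 was male. Among the controls, set and sex therefore cannot be told apart. In the tumours, vehicle 1 stood apart, with 46.6% of reads on mitochondrial genes against 1.24 to 6.47% elsewhere, and vehicle 5 was the shallowest library. Hepatocyte markers (7 of 8 measured) summed to 115709 to 144303 CPM in controls and 142437 to 168969 CPM in fusion embryos. Of these 7, 2 had higher estimates in fusion embryos and 5 had lower ones. Afp averaged 42301 CPM in controls and 76597 CPM in fusion embryos, and Apoa1 23180 and 12540 CPM. In tumours the hepatocyte markers summed to 31481 CPM in vehicle 1 and up to 92698 CPM in the other vehicle tumours. Under palbociclib they summed to 68714 to 102171 CPM, and none was at 0 in any tumour.

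Fasn and Mlxipl fell in fusion livers, the only members of 10 to pass the test, and none rose. Among all 13316 genes tested with edgeR's quasi-likelihood test, 12.8% passed in either direction, 5.99% higher and 6.81% lower. DESeq2 called 4 members, all lower (Fasn, Mlxipl, Scd1 and Elovl6), against 18.4% of all genes, and edgeR with sex as a covariate called 4 (Fasn, Mlxipl, Scd1 and Me1) against 9.64%. All 10 members had point estimates below control, where 48.3% of all genes had estimates above it, and the median log2 fold change was -0.38 for the members against -0.01 for all genes. The groups did not overlap for Fasn, Mlxipl and Elovl6, 3 of 10 against 16.5% of all genes. An unadjusted p under 0.05 was reached by 6 of 10 members and by 29.3% of all genes. In whole livers, fewer cells of a type and less RNA per cell cannot be told apart.

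Among the enzymes of the synthetic core, Fasn was at 174, 162, 113, 130 and 130 CPM in control embryos 1 to 5. In fusion embryos 6 to 9 it was at 83.8, 89.7, 52.5 and 77.1 CPM. Every fusion liver was below every control, and the lowest value was in fusion 8. Its log2 fold change was -0.90 ± 0.18 (SE), a 1.87-fold lower level, with an edgeR adjusted p of 0.00961. Acaca, which makes the malonyl-CoA that Fasn uses, was at 70.4, 55.4, 41.3, 41.6 and 44.1 CPM in controls and at 36.4, 44.0, 29.7 and 36.2 CPM in fusion embryos. The groups overlapped through fusion 7, and the change of -0.46 ± 0.18 did not pass (edgeR adjusted p = 0.112).

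Mlxipl had the largest difference of the 10 members. Its levels were 33.8, 29.1, 48.4, 41.2 and 40.8 CPM in control embryos and 16.2, 15.4, 10.1 and 17.4 CPM in fusion embryos. The highest fusion liver lay well below the lowest control, and the fold change was -1.39 ± 0.19 on the log2 scale, 2.62-fold lower, with an edgeR adjusted p of 0.00117. The other regulator did not pass: Srebf1 was at 132 to 171 CPM in controls and 130 to 155 CPM in fusion embryos, with a log2 fold change of -0.10 ± 0.12 (edgeR adjusted p = 0.610). Counts of Srebf1 pool its start sites, so the SREBP-1a and SREBP-1c forms were not measured apart. Thrsp was the member with the fewest counts, 13 to 78 per library, and ranged from 0.705 to 4.64 CPM in controls and 0.438 to 5.21 CPM in fusion embryos. Its log2 fold change of -0.23 ± 0.69 had the largest error of the members.

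For the enzymes that modify palmitate, Elovl6 gave a small and even difference. It was at 101, 97.7, 98.1, 110 and 111 CPM in controls and at 84.1, 81.3, 85.2 and 87.1 CPM in fusion embryos. The groups did not overlap, yet the change of -0.30 ± 0.10 on the log2 scale missed the threshold (edgeR adjusted p = 0.0727). Scd1 was uneven among controls, at 202, 215, 78.5, 111 and 106 CPM in controls and 53.4, 90.8, 84.4 and 59.5 CPM in fusion embryos. Controls 1 and 2 were about the same as each other and far above the other three, and control 3 lay among the fusion livers. Its change of -0.99 ± 0.30 had an edgeR adjusted p of 0.0532, which became 0.0360 without control 3, the one library whose removal brought another member past the threshold. Reads that Scd1 shares with its close relatives, such as Scd2, could be assigned either way, so its level carries that uncertainty.

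Of the genes that supply substrate, none passed. Me1 was at 14.9, 20.1, 7.95, 8.55 and 8.90 CPM in controls and 6.55, 7.12, 9.20 and 6.43 CPM in fusion embryos, a change of -0.70 ± 0.28 (edgeR adjusted p = 0.121). As for Scd1, controls 1 and 2 stood above the rest. Acly was at 231, 216, 111, 139 and 122 CPM in controls and 159, 176, 138 and 136 CPM in fusion embryos, so that the fusion livers lay inside the control range (log2 fold change -0.11 ± 0.23, edgeR adjusted p = 0.796). Pklr ranged from 97.0 to 126 CPM in controls and from 76.3 to 160 CPM in fusion embryos (log2 fold change -0.08 ± 0.21, edgeR adjusted p = 0.832).

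**Figure D1:**
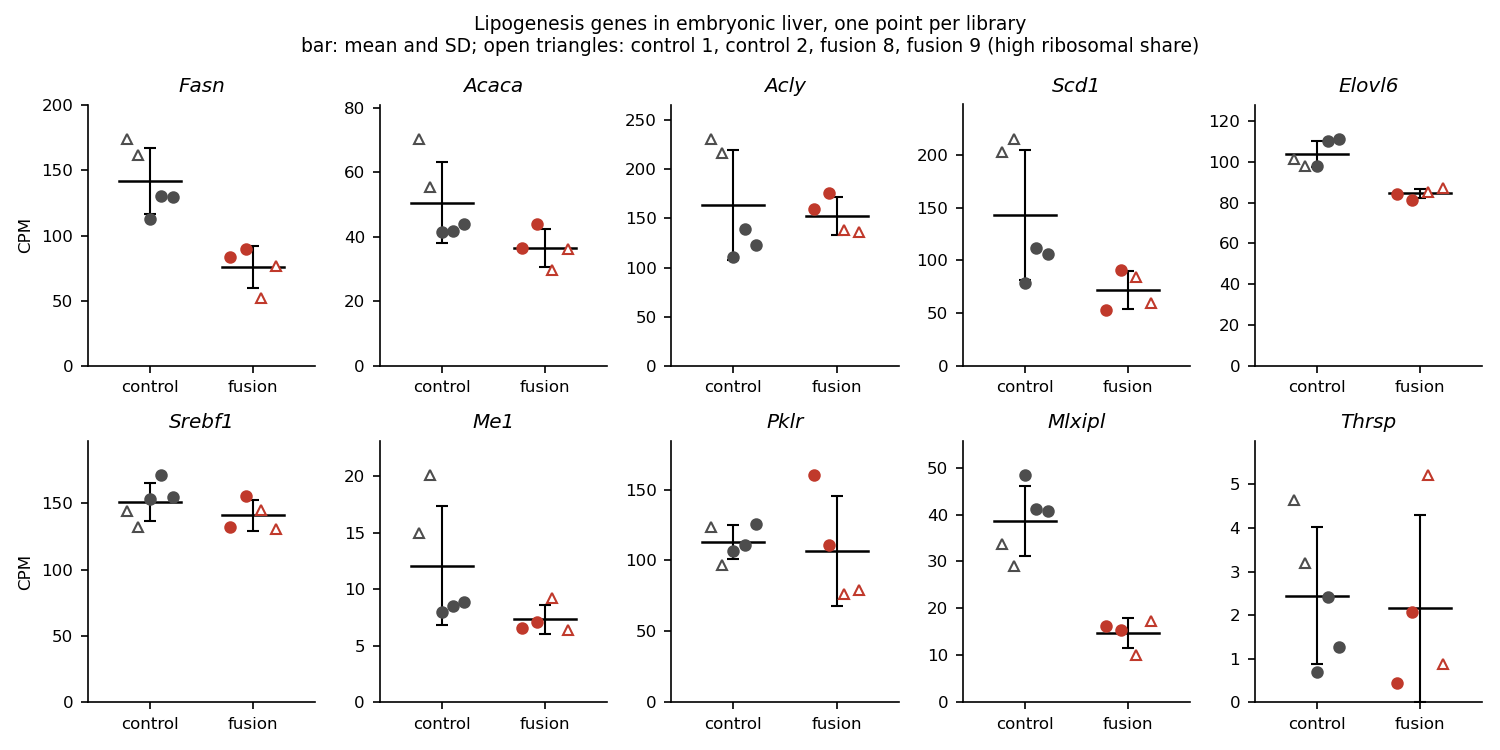
Level of each lipogenesis gene in CPM in the embryonic livers, one panel per gene with its own axis from 0; each point is 1 library, and lines give the mean and SD of 5 control and 4 fusion livers, with open triangles for the libraries of higher ribosomal share (control 1 and 2, fusion 8 and 9). The fusion points of Fasn, Mlxipl and Elovl6 lie below all control points, and those of Acly lie inside the control range. Those of Srebf1, Pklr and Thrsp overlap the control points, with Pklr and Thrsp reaching both below and above them.

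Fasn and Mlxipl were also lower within each of the 2 sets of libraries. In the higher-share libraries, Fasn averaged 168 CPM in 2 controls and 64.8 CPM in 2 fusion livers, a log2 fold change of -1.36 (edgeR adjusted p = 0.00190). In the lower-share libraries it averaged 124 CPM in 3 controls and 86.8 CPM in 2 fusion livers, a change of -0.52 (edgeR adjusted p = 0.0128). These 3 controls were male and these 2 fusion livers female, so genotype and sex cannot be told apart there. Mlxipl was lower in both sets, by -1.18 (edgeR adjusted p = 0.00840) and -1.46 (edgeR adjusted p = 5.85e-05) on the log2 scale. Scd1 gave -1.53 (edgeR adjusted p = 0.000886) in the higher-share libraries and -0.46 (edgeR adjusted p = 0.161) in the others. For Fasn, Mlxipl and Scd1 the difference between the sets did not pass the test given next (edgeR adjusted p = 0.110, 0.655 and 0.137).

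Acly pointed opposite ways. In the higher-share libraries it averaged 224 CPM in controls and 137 CPM in fusion livers, a log2 fold change of -0.70 (edgeR adjusted p = 0.00852). In the lower-share libraries the averages were 124 and 167 CPM, a change of 0.43 (edgeR adjusted p = 0.0357). The difference between the sets was tested as an interaction of genotype and set over all genes, a test added after these values had been seen. Set and sex coincided among the controls, which this test cannot separate. Acly was the only member to pass it, at -1.14 ± 0.18 on the log2 scale (edgeR adjusted p = 0.0322), where 0.188% of all genes passed. The other members had adjusted p-values of 0.101 or more in this edgeR test, which does not show that their changes were equal. Fasn, Acaca, Scd1, Me1 and Pklr had estimates of -0.75 to -1.08 in it, the same direction as Acly. Elovl6, Srebf1, Mlxipl and Thrsp had estimates of 0.08 to 0.26. Pklr also pointed opposite ways, at -0.50 in the higher-share (edgeR adjusted p = 0.0412) and 0.24 in the lower-share libraries (edgeR adjusted p = 0.292).

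Within the higher-share libraries 7 members were lower and passed (Fasn, Acaca, Acly, Scd1, Me1, Pklr and Mlxipl), against 9.8% of all genes lower and 10.2% higher. Within the lower-share libraries 3 were lower and passed (Fasn, Elovl6 and Mlxipl), against 11.2% of all genes, and Acly was higher, against 10.6%. With the set as a covariate over all 9 livers, 6 members passed, all lower, against 16.5% of all genes that were lower. Beside Fasn and Mlxipl these were Scd1 at -0.94 (edgeR adjusted p = 0.00592), Me1 at -0.68 (0.0108), Elovl6 at -0.29 (0.0201) and Acaca at -0.45 (0.0373). Acaca was at -0.93 (edgeR adjusted p = 0.00627) in the higher-share and -0.08 (edgeR adjusted p = 0.642) in the lower-share libraries alone.

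**Figure D2:**
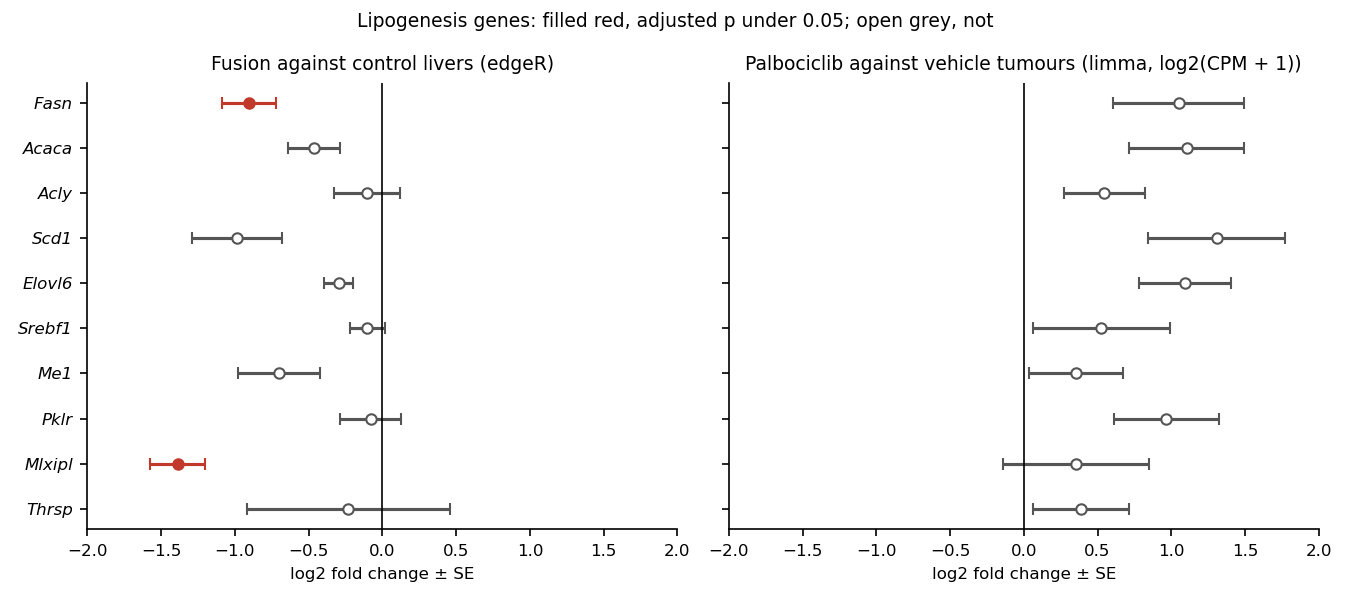
Log2 fold change of each lipogenesis gene with its standard error, fusion against control livers (edgeR) and palbociclib against vehicle tumours (limma on log2(CPM + 1)); filled red points passed an adjusted p of 0.05. All 10 points lie below 0 in the embryos, with Fasn and Mlxipl filled, and all 10 lie above 0 in the tumours, with none filled.

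The pathway around the members was read from 7 lists holding 87 further genes, also chosen with earlier results of these data known. Of these, 82 were tested in the embryos. There 19 passed, 6 higher and 13 lower, against 12.8% of all genes (5.99% higher and 6.81% lower), and the median log2 fold change was -0.093 for the 82 and -0.014 for all genes. Among 11 genes that supply acetyl-CoA and NADPH, 1 rose and 2 fell. Mdh1, the cytosolic malate dehydrogenase, rose from 292 ± 44.7 CPM (SD, n = 5) to 810 ± 141 CPM (n = 4), by 1.47 on the log2 scale (edgeR adjusted p = 0.000448). The citrate exporter Slc25a1 fell by 0.56 and the pyruvate dehydrogenase kinase Pdk4 fell by 0.73, with edgeR adjusted p-values of 0.0312 and 0.0497.

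Of 7 partners of the carboxylase and synthase, 2 fell and none rose. Acacb, whose carboxylase makes the malonyl-CoA that restrains fatty acid oxidation at the mitochondrion, fell from 56.1 ± 36.6 to 9.33 ± 3.26 CPM, a log2 fold change of -2.60 (edgeR adjusted p = 0.00582). Hlcs, which attaches biotin to the carboxylases, fell from 6.48 ± 0.822 to 3.65 ± 0.0744 CPM (log2 fold change -0.82, edgeR adjusted p = 0.00560). Among 11 further desaturases and elongases, 1 rose and 2 fell. Fads1, a desaturase of polyunsaturated fatty acids, fell from 169 ± 11.9 to 96.3 ± 14.5 CPM (edgeR adjusted p = 0.00303), and the enoyl-CoA reductase gene Tecr fell by 0.63 (edgeR adjusted p = 0.0490). Elovl2, an elongase of polyunsaturated fatty acids, rose by 0.65 (edgeR adjusted p = 0.0287).

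In glycerolipid synthesis, which puts the fatty acids into triglyceride and membrane lipid, 1 of 14 genes rose and 3 fell. Acsl4, an acyl-CoA synthetase with a preference for arachidonate, rose by 0.85 on the log2 scale. The phosphatidate phosphatase Lpin1 fell by 0.98, the acyl-CoA synthetase Acsl5 fell by 0.61 and the acyltransferase Agpat3 fell by 0.54, and the edgeR adjusted p-values of these 4 genes ranged from 0.00547 to 0.0281. On the lipid droplet, 2 of 9 genes fell and none rose. Pnpla3, a droplet protein known as a target of SREBP-1c and ChREBP, fell from 12.9 ± 2.93 to 2.06 ± 0.578 CPM, a log2 fold change of -2.64 (edgeR adjusted p = 8.33e-05), which was larger than that of any member. Abhd5, the activator of the droplet lipase, fell from 89.0 ± 12.7 to 44.1 ± 11.3 CPM (edgeR adjusted p = 0.00467).

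Of 16 transcriptional regulators of the pathway, 1 rose and none fell. It was Klf15, a factor of the fasting liver, at 35.7 ± 5.95 CPM in controls and 63.3 ± 13.8 CPM in fusion livers (edgeR adjusted p = 0.00996). Among 14 genes of insulin and AMPK signalling, 2 rose and 2 fell. Sik1, a kinase gene induced by cyclic AMP, rose from 26.4 ± 5.33 to 57.2 ± 4.34 CPM (edgeR adjusted p = 0.00111), and Irs1, an adaptor of the insulin receptor, rose from 12.5 ± 1.18 to 19.8 ± 2.63 CPM (edgeR adjusted p = 0.00689). The insulin receptor gene Insr fell by 0.58 (edgeR adjusted p = 0.0245) and the pseudokinase gene Trib3 fell by 0.93 (edgeR adjusted p = 0.0172).

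Of the 19 pathway genes that passed, 9 also passed in all 16 alternatives: Mdh1, Acacb, Fads1, Acsl4, Acsl5, Pnpla3, Abhd5, Klf15 and Sik1. Another 3 missed the threshold in 1 alternative, Trib3 without fusion 8, and Hlcs and Irs1 in the higher-share libraries alone. The remaining 7 (Pdk4, Slc25a1, Elovl2, Tecr, Lpin1, Agpat3 and Insr) missed it in 4 or more, each of them without fusion 6 and without fusion 8 among others.

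**Figure D3:**
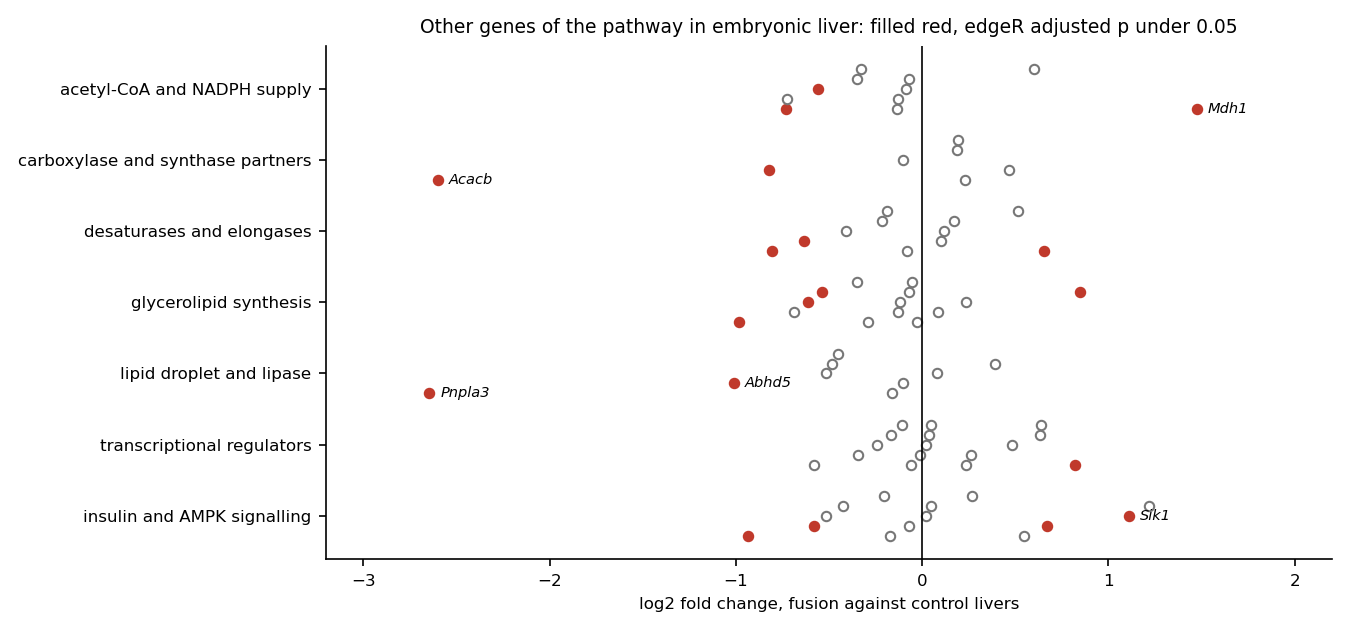
Log2 fold change of the further pathway genes in fusion against control livers, one point per gene, grouped by list on the vertical axis; filled red points passed an edgeR adjusted p of 0.05. The 13 genes that fell and the 6 that rose are spread over the lists, with Pnpla3 and Acacb farthest to the left and Mdh1 farthest to the right.

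Among the cell type markers in the embryos, 2 of 7 hepatocyte genes passed, Afp higher (log2 fold change 0.86) and Apoa1 lower (-0.89). Of all genes tested, 12.8% passed in either direction. Of the 2 adipocyte markers with a row, Plin4 was lower (-0.85), while Fabp4 had a higher estimate (0.35) that did not pass. Of 5 fibroblast markers Col1a1 (-0.80) and Col1a2 (-0.57) were lower. None of 6 erythroid, 6 macrophage, 5 endothelial and 5 neutrophil markers passed (edgeR, adjusted p). Erythroid markers summed to 2643 to 4378 CPM in controls and 2954 to 3750 CPM in fusion livers, and fibroblast markers to 214 to 394 CPM and 176 to 281 CPM. Their part in the results was not tested.

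In the tumours no member passed the test. All 10 had higher point estimates under palbociclib, with a median log2 difference of 0.76, but the median of all 12829 genes was 0.14 and 68.8% of them had estimates above 0. limma on log2(CPM + 1) called 0.0% of all genes, while 5 of 10 members and 4.57% of all genes reached an unadjusted p under 0.05. On the whole reads recovered from the CPM, edgeR also called none and DESeq2 called 8 genes, 0.0468% of those with an adjusted p, none of them members. The groups did not overlap for 2 members, Acaca and Elovl6, against 0.935% of all genes. The limma adjusted p was 0.953 for each member except Mlxipl, at 0.958. On recovered reads the adjusted p of the members ranged from 0.904 to 0.997 with edgeR. With DESeq2 it ranged from 0.0751, for Elovl6, to 0.9999.

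Elovl6 was at 9.54, 27.3, 26.0, 32.6 and 21.3 CPM in vehicle tumours 1 to 5 and at 71.2, 38.8, 50.1, 35.2 and 49.2 CPM in palbociclib tumours 1 to 5. Each palbociclib tumour was above each vehicle tumour, although palbociclib 4 and vehicle 4 were close. The log2 difference was 1.09 ± 0.31. Acaca was at 15.7, 81.6, 57.8, 80.0 and 68.7 CPM in vehicle tumours and 211, 86.3, 118, 85.2 and 110 CPM in palbociclib tumours, a log2 difference of 1.10 ± 0.39. Here the groups were kept apart by a few CPM, and the mean was drawn up by palbociclib 1 and down by vehicle 1. Without palbociclib 1 the difference of Acaca was 0.89, and without vehicle 1 it was 0.68.

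Scd1 was the most abundant member for its exon length in the tumours. It was at 1081, 5985, 3807, 2275 and 2284 CPM in vehicle tumours and 9270.0, 12562, 4157, 5006 and 4920.3 CPM in palbociclib tumours. Of the vehicle tumours only vehicle 2 reached into the palbociclib range, and the log2 difference was 1.31 ± 0.47. Fasn was at 53.0, 430, 337, 262 and 377 CPM in vehicle tumours and 655, 547, 359, 438 and 524 CPM in palbociclib tumours. Palbociclib 3 lay within the vehicle range, and the difference of 1.05 ± 0.44 was 0.51 without vehicle 1. Pklr was at 15.7, 61.8, 74.4, 47.5 and 54.1 CPM in vehicle tumours and 149, 69.7, 84.2, 72.3 and 89.4 CPM in palbociclib tumours, with a log2 difference of 0.97 ± 0.36. Vehicle 3 lay within the palbociclib range, and the difference was 0.60 without vehicle 1. These were, with Elovl6 and Acaca, the 5 members with an unadjusted p under 0.05.

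The regulators overlapped broadly. Mlxipl was at 38.0, 509, 310, 188 and 198 CPM in vehicle tumours and 336, 151, 196, 288 and 272 CPM in palbociclib tumours. The group means were equal, at 249 CPM each, and the log2 difference of 0.35 ± 0.49 was -0.21 without vehicle 1. Srebf1 was at 30.7, 316, 220.2, 146 and 164 CPM in vehicle tumours and 184, 254, 122, 299 and 192 CPM in palbociclib tumours, and its difference of 0.53 ± 0.46 was -0.0104 without vehicle 1. For Mlxipl the estimate was also below 0 with all tumours kept, at -0.026 with edgeR and -0.036 with DESeq2 on recovered reads. Acly ranged from 43.0 to 106 CPM and from 69.7 to 150 CPM, Me1 from 53.8 to 136 CPM and from 55.3 to 175 CPM, and Thrsp from 12.1 to 36.5 CPM and from 18.9 to 49.2 CPM, in vehicle and palbociclib tumours.

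In CPM, vehicle 1 was the lowest tumour for every member. Mitochondrial genes held 46.6% of its reads, which lowers the CPM of all its other genes, so the ranks are given for this scale only. Vehicle 1 also had the lowest hepatocyte markers in CPM, with Alb at 16348 CPM against 31401 to 46773 CPM in the other 9 tumours. Without it the median log2 difference of the members was 0.45, with 8 of 10 above 0, and that of all genes was 0.03. With mitochondrial genes left out of the totals the median was 0.61, against 0.01 for all genes. The adipocyte markers, 5 of 7 measured, summed to 55.2 to 149 CPM in vehicle and 57.9 to 104 CPM in palbociclib tumours, almost all of it Fabp4. Adipoq, the hormone gene that defines fat cells, was at 0 in 7 of 10 tumours and at most 1.81 CPM, and Retn was at 0 in 8. Cfd was at 0 to 3.38 CPM in vehicle and 0 to 5.58 CPM in palbociclib tumours, and Plin4 at 0.426 to 1.76 CPM and 0.493 to 3.20 CPM. Erythroid markers ranged from 1027 to 49099 CPM in vehicle and 1058 to 5500 CPM in palbociclib tumours. In the same order, skin and sebaceous markers summed to 15.2 to 33.6 and 9.85 to 51.9 CPM, and skeletal muscle markers to 5.75 to 34.2 and 2.96 to 25.0 CPM. Macrophage markers summed to 55.0 to 1191 and 55.5 to 147 CPM, and fibroblast markers to 39.0 to 231 and 46.2 to 186 CPM. Endothelial markers summed to 68.2 to 186 and 57.7 to 89.8 CPM, and neutrophil markers to 29.4 to 150 and 11.1 to 53.6 CPM. The part of these cells in the results was not tested.

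**Figure D4:**
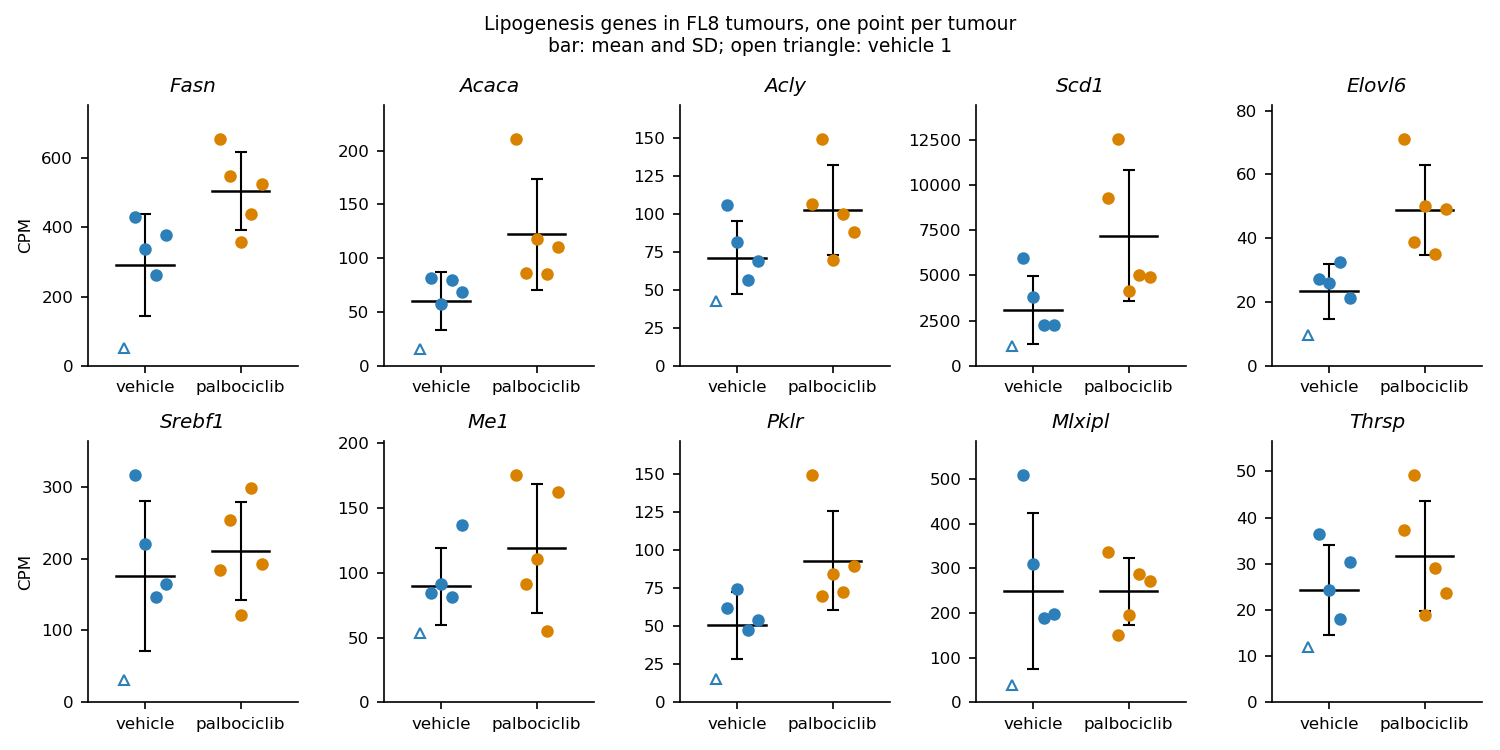
Level of each lipogenesis gene in CPM in the FL8 tumours, one panel per gene with its own axis from 0; each point is 1 tumour, and lines give the mean and SD of 5 vehicle and 5 palbociclib tumours. The open triangle is vehicle 1, the lowest point of every panel, and only the Acaca and Elovl6 groups do not overlap.

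Of the 82 further pathway genes tested in the tumours, 0 passed in limma, 10 had an unadjusted p under 0.05 and 69 had higher point estimates, where 4.57% and 68.8% of all genes did. Their median log2 difference was 0.28, against 0.14 for all genes. edgeR and DESeq2 on recovered reads also called 0 of them. The gene with the smallest p among the desaturases was Fads2, at 153 ± 70.5 CPM (SD, n = 5) in vehicle and 334 ± 73.5 CPM (n = 5) in palbociclib tumours without overlap (limma log2 difference 1.29 ± 0.37). Acss2, which makes acetyl-CoA from acetate, was at 43.0 ± 42.5 and 92.7 ± 46.0 CPM (1.45 ± 0.49). Gpam, the mitochondrial enzyme that opens triglyceride synthesis, was at 49.3 ± 34.3 and 98.9 ± 43.2 CPM (1.31 ± 0.49), and Acacb at 3.10 ± 1.73 and 9.10 ± 6.07 CPM (1.19 ± 0.44). The droplet gene Cidec was at 1.42 ± 1.07 and 3.93 ± 1.64 CPM (1.12 ± 0.40). The smallest p among the regulators belonged to Mbtps1, the protease that releases SREBP, with a log2 difference of 0.58, and in insulin signalling to Akt2, at 0.37. The genes with the smallest p among those with lower estimates were G6pdx (-0.07), Mid1ip1 (-0.15), Dgat1 (-0.16), Mlxip (-0.20) and Prkab2 (-0.10), and no desaturase or droplet gene had a lower estimate.

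To compare levels between genes, CPM were divided by the exon length of each gene in kilobases. That length was the union of all annotated exons, 17074 bases for Acaca, so it can exceed the length of a single transcript. In control livers the order was Pklr (34.9 ± 3.74 CPM per kilobase, SD), Acly (31.0 ± 10.6), Scd1 (29.2 ± 12.6), Srebf1 (26.8 ± 2.57), Elovl6 (16.1 ± 1.02), Fasn (12.9 ± 2.33), Mlxipl (6.98 ± 1.34), Me1 (3.14 ± 1.37), Acaca (2.96 ± 0.731) and Thrsp (1.12 ± 0.715). Neighbours from Pklr to Srebf1 overlapped in their ranges, as did Elovl6 with Fasn and Me1 with Acaca, and the other neighbours did not. In fusion livers the order was the same except that Srebf1 (25.0 ± 2.06) passed above Scd1 (14.7 ± 3.75), and Acaca (2.14 ± 0.341) above Me1 (1.90 ± 0.334).

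In the tumours Scd1 stood alone at the top, at 631 ± 386 CPM per kilobase under vehicle, 14.1 times the next member, Mlxipl (44.9 ± 31.6). Under palbociclib it was at 1468 ± 739 CPM per kilobase, 31.9 times the next, Fasn (46.1 ± 10.3). All other neighbours overlapped except Thrsp (11.1 ± 4.43) and Elovl6 (3.63 ± 1.35) in vehicle tumours, and Acaca (3.56 ± 1.58 and 7.15 ± 3.04) was the lowest in both treatments. The embryo and tumour tables were normalized separately and come from different RNA preparations, so their levels stand side by side without a test. In CPM, Scd1 averaged 143 in control livers and 3087 in vehicle tumours, Thrsp 2.45 and 24.3, Me1 12.1 and 89.4, and Mlxipl 38.6 and 249. Elovl6 averaged 104 and 23.4, Acly 164 and 71.2, and Pklr 113 and 50.7.

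**Figure D5:**
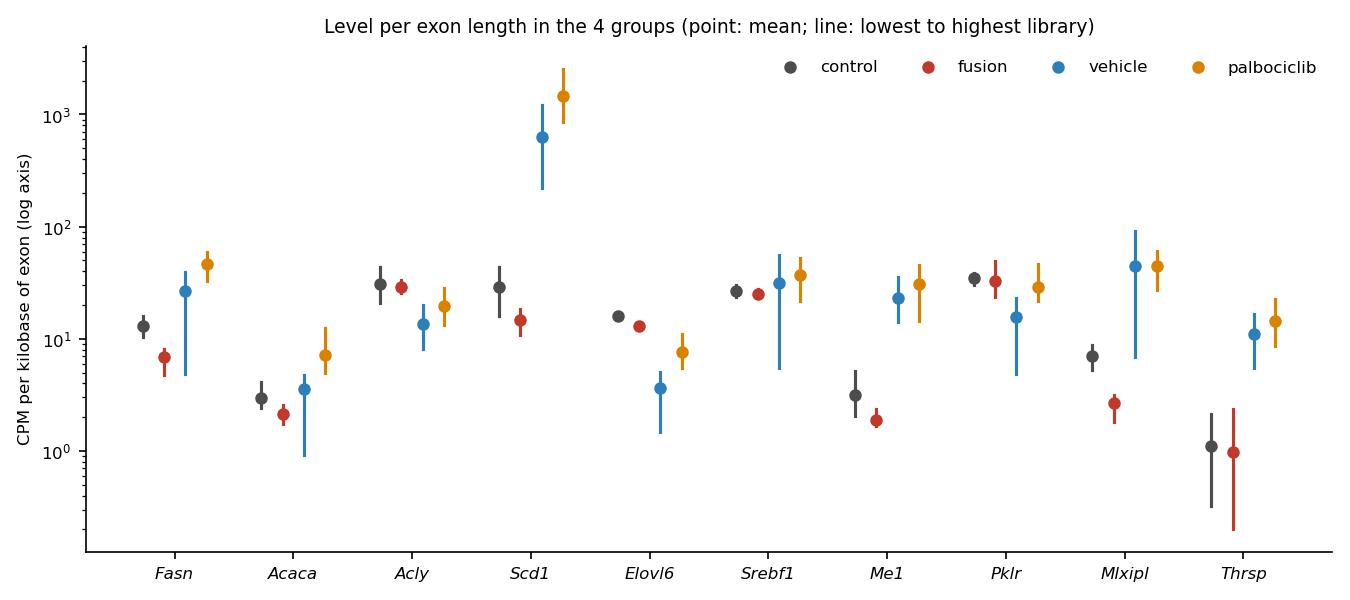
Mean level of each lipogenesis gene in CPM per kilobase of exon, on a log axis, in the 4 groups, with a line from the lowest to the highest library; the tables of embryos and tumours were normalized separately. Scd1 is at 29.2 in control livers and 631 in vehicle tumours, where every other member is at 44.9 or less.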

How the data were processed

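RNA was sequenced from 9 embryonic livers (poly-A RNA) and 10 tumours (total RNA), grouped by the genotype and treatment labels. For the embryos the authors deposited a table of raw counts by gene symbol, whose genes have a count sum of 47 or more. For the tumours the authors deposited CPM by Ensembl gene, per the file headers. Per the submitters' processing notes, embryos were processed with STAR 2.5.1b and DESeq2, and tumours with cutadapt 2.10, HISAT2, featureCounts, DESeq2 and R 4.1.2, both on mm10. Strand use and the treatment of reads shared by related genes are not given in the sources used here. For the control tumours the labels name a methocel carrier and the series text PBS, and the labels were followed. A second block of 9 columns in the embryo table was not used.

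Embryo counts were tested with edgeR 4.0.16 (quasi-likelihood, TMM factors, filterByExpr) under R 4.3.3, and embryo values are TMM-scaled CPM. For tumours, limma 3.58.1 (eBayes, trend) was run on log2(CPM + 1), keeping genes whose mean reached 1 CPM. That scale understates changes of low genes. Benjamini-Hochberg adjustment ran over all genes tested, with a threshold of 0.05, and each printed adjusted p of an embryo gene is from edgeR. All 10 members passed the filters. Tumour CPM were whole multiples of 1 read for 100.0% of values (tolerance 1e-06), so whole reads were recovered for edgeR and for DESeq2 1.42.0. Both main tests were run on simulated data, which held neither the library sets of the embryos nor the mitochondrial share of vehicle 1.

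The members and lists were chosen with earlier results of these data known. The members were always named. One listed pathway gene is not reported here. Of each further list, up to 3 genes that passed in each direction were named or, where none passed, the one with the smallest p in each direction. GENCODE release M21 gave symbols for 17469 of 17606 tumour identifiers, gene spans and exon lengths. Upstream sequences are from RefSeq. Alternatives covered size factors, tools, filters, the pseudocount, library sets, sex (from Xist), mitochondrial reads, a replicate block and each library left out. The floor was a count of 3, which is 0.0658 to 0.392 CPM in embryo and 0.0695 to 1.01 CPM in tumour libraries, and it covers counting error only. Libraries of a group all differed by more than counting noise (lowest chi-square per degree of freedom 12.5), and each was counted as 1 sample.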

Additional observations from a re-analysis of the deposited data

Results flagged for a closer look

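Of 40 groups of values screened (10 genes in 4 groups), 2 held a library far from the others of its group, and chance flags about 1 in 20. Both were in palbociclib 1. Acaca was at 211 CPM there against 85.2 to 118 CPM in the other 4 palbociclib tumours. Pklr was at 149 CPM against 69.7 to 89.4 CPM. Without palbociclib 1 the log2 differences were 0.89 for Acaca and 0.78 for Pklr. Without vehicle 1 they were 0.68 and 0.60.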

How the results depend on the processing

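Fasn and Mlxipl passed, lower, in all 7 other settings and in all 9 with an embryo left out. The count of members that passed was 4 with DESeq2, 6 with the library set as a covariate, 4 with sex as a covariate, 7 in the higher-share and 4 in the lower-share libraries alone, and 2 to 3 with a library left out. The count over all genes, 1704 in the main test, was 4345 with the library set as a covariate, 2589 in the higher-share and 2950 in the lower-share libraries, and 969 to 1581 with a library left out. Further pathway genes that passed numbered 19 in the main test, 33 with the covariate, 29 in the higher-share and 30 in the lower-share libraries, and 11 to 20 with a library left out. In the lower-share libraries Acly was at 0.43 and Pklr at 0.24, and in the higher-share libraries Srebf1 was at 0.0069. With an embryo left out, Acly ranged from -0.20 to 0.063, Pklr from -0.34 to 0.052 and Thrsp from -1.16 to 0.20. In the tumours, DESeq2 on recovered reads called 8 genes where the main test called 0. Mlxipl was at -0.026 with edgeR and -0.036 with DESeq2 on recovered reads. With a tumour left out, Mlxipl ranged from -0.21 to 0.72, Srebf1 from -0.0104 to 0.82, G6pdx from -0.27 to 0.10, Mid1ip1 from -0.34 to 0.0101 and Prkab2 from -0.47 to 0.14. The cause of these shifts was not tested. With the tumour numbers as a replicate block, 0 genes, 0 members and 0 further pathway genes passed. Tumours of the same number did not deviate together (correlations of -0.32 to 0.00223), and no label says that the numbers pair them. These correlations cannot exclude a pairing. A count of 3 is 1.01 CPM in vehicle 5, the shallowest library, so low genes are least precise there.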

Other observations

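The genes whose levels varied most like Fasn were ranked by the correlation of log2 values across libraries after the mean of each group had been subtracted, as a description with no test. The libraries share depth and composition, which this measure does not remove. Nor does it remove the 2 library sets of the embryos or the difference of vehicle 1 from the other tumours. Fasn, Acaca and Acly averaged 168, 62.9 and 224 CPM in higher-share controls and 124, 42.3 and 124 CPM in lower-share controls. Mlxipl averaged 31.5 and 43.4 CPM. In fusion livers each of these genes averaged less in the higher-share set. The part of the sets in the ranks was not tested. Across 9 embryonic livers and 13315 other genes, the first 5 were Serp2 (r = 0.98), Tmem86b (0.96), Pdcd11 (0.95), Cbl (0.95) and Prmt1 (0.94). Acaca was at rank 52 (0.88) and Acly at rank 303 (0.78), while Mlxipl, which fell with Fasn, was at rank 5852 (0.06). Across 10 tumours and 12828 other genes, the first 5 were Slc39a4 (0.98), Loxl4 (0.97), F7 (0.96), Ces2g (0.95) and Cars (0.95). There Srebf1 was at rank 92 (0.84), Mlxipl at 114 (0.83), Pklr at 212 (0.78) and Acaca at 276 (0.75).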
